A study of Oreochromis mossambicus with 6 samples.

Results

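The genes described here build and move chromosomes in mitosis: kinetochore subunits, the spindle checkpoint, the chromosomal passenger complex, condensin and cohesin, and factors of the spindle, the centrioles and cytokinesis. They were taken by their symbols, as genes of the deposited table whose symbol begins with the name stem of one of these proteins (*cenp*, *ndc80*, *nuf2*, *spc24*, *spc25*, *bub1*, *bub3*, *ttk*, *mad1l*, *mad2l*, *mis12*, *smc1* to *smc6*, *ncap*, *aurk*, *plk1* to *plk4*, *tpx2*, *nusap1*, *birc5*, *cdca8*, *anln*, *prc1*, *top2a*, *ckap2*, *ckap5*, *espl1*, *pttg1*, *stag*, *rad21* or *aspm*) and that held at least 10 counts over the 6 libraries. The stems matched 62 genes, of which 59 reached 10 counts, out of 24878 genes that did so and 32591 genes in the table. The other three, *birc5b*, *rad21l1* and *stag3*, held 4, 0 and 1 counts in all. No symbol of the table began with *knl1*, *zwint*, *smc5*, *incenp*, *sgo1* or *sgo2*, and these genes are not analysed here. The rule reads symbols and the count minimum, although it was written with earlier results of these data known. Of the 59 genes, 6 were judged to match mainly by the prefix of their symbol and are described apart.

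RNA-Seq was performed on gill filaments of male Mozambique tilapia (*Oreochromis mossambicus*) of wild type genotype, all hypophysectomized (Hx). The oPrl group (3 fish) was injected with ovine prolactin at 5 μg per g body weight, and the vehicle group (3 fish) with saline. The fish weighed 80 to 110 g according to the labels, recovered from surgery for 5 days in water of 12 ppt, and were injected 3 times at intervals of 48 h, with filaments sampled 24 h after the final injection. The single contrast asks what prolactin does to branchial transcripts in fish that lack their own. Hypophysectomy removes every pituitary hormone and not prolactin alone, none of the 6 fish had an intact pituitary, the fish were a subset of a larger experiment, and their age is not given in the sources used here. Each fish gave 1 library, so p-values set the difference between groups against the spread among these 6 fish within their groups.

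A dividing cell first replicates its chromosomes while cohesin rings hold the sister copies together. Condensin and topoisomerase II then fold and untangle them, the kinetochore assembles on each centromere and grips spindle microtubules, and the checkpoint delays separase, which cuts cohesin, until all chromosomes are attached. Most of these genes are transcribed chiefly in cycling cells, whereas cohesin also shapes chromatin in cells that do not divide. The gill epithelium renews itself throughout life from basal progenitor cells.

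Counts assigned to genes ran from 30516271 to 32959492 in the oPrl libraries and from 21643589 to 35976655 in the vehicle libraries, with medians of 32337824 and 26263548. Levels are given as CPM, counts scaled by TMM to a common library size. A positive log2 fold change means a higher level with oPrl, and it is followed by its standard error (SE). Adjusted p comes from the quasi-likelihood test of edgeR, corrected by Benjamini-Hochberg over all 24878 genes. A gene was called at an adjusted p under 0.01 with a log2 fold change beyond 1, and a looser threshold of 0.05 with no minimum change is given beside it. The epithelial markers *epcam* and *krt5* were present at high levels in all 6 libraries, at 1318 to 2371 CPM and 2970 to 6954 CPM. Their log2 fold changes were −0.51 ± 0.19 and −0.81 ± 0.21, and neither passed 0.05 after adjustment. By the same edgeR test their unadjusted p were 0.0329 and 0.00581. All oPrl libraries of *krt5* lay below all vehicle libraries.

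The mitotic genes as a group were higher in oPrl-injected fish. In RNA from whole filaments, more cells of a type and more RNA per cell cannot be told apart. Of the 59 members, 55 had a positive log2 fold change and 4 a negative one, and their median was 1.89, beside 0.02 for all genes tested. Called higher were 11 members, beside 0.715% of all genes, and called lower were 0, beside 0.687%. At the looser threshold 42 were higher and 1 was lower, beside 3.28% and 2.83% of all genes, and 16 did not pass. At an unadjusted p under 0.05, 47 were higher and 2 lower, beside 11.6% and 10.1%. In 49 members the lowest oPrl library lay above the highest vehicle library, beside 16.3% of all genes, and in 2 members the groups were apart in the other direction, beside 12.7%. DESeq2, with the same thresholds, called 40 members higher and 1 lower, beside 3.66% and 3.5% of the genes to which it gave an adjusted p, and all 11 members called by edgeR were among its 40. The 11 were *bub1*, *ttk*, *bub1bb*, *smc2*, *smc4*, *ncapd2*, *ncapd3*, *ncapg2*, *ckap2l*, *aspm* and *anln*.

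**Figure D1:**
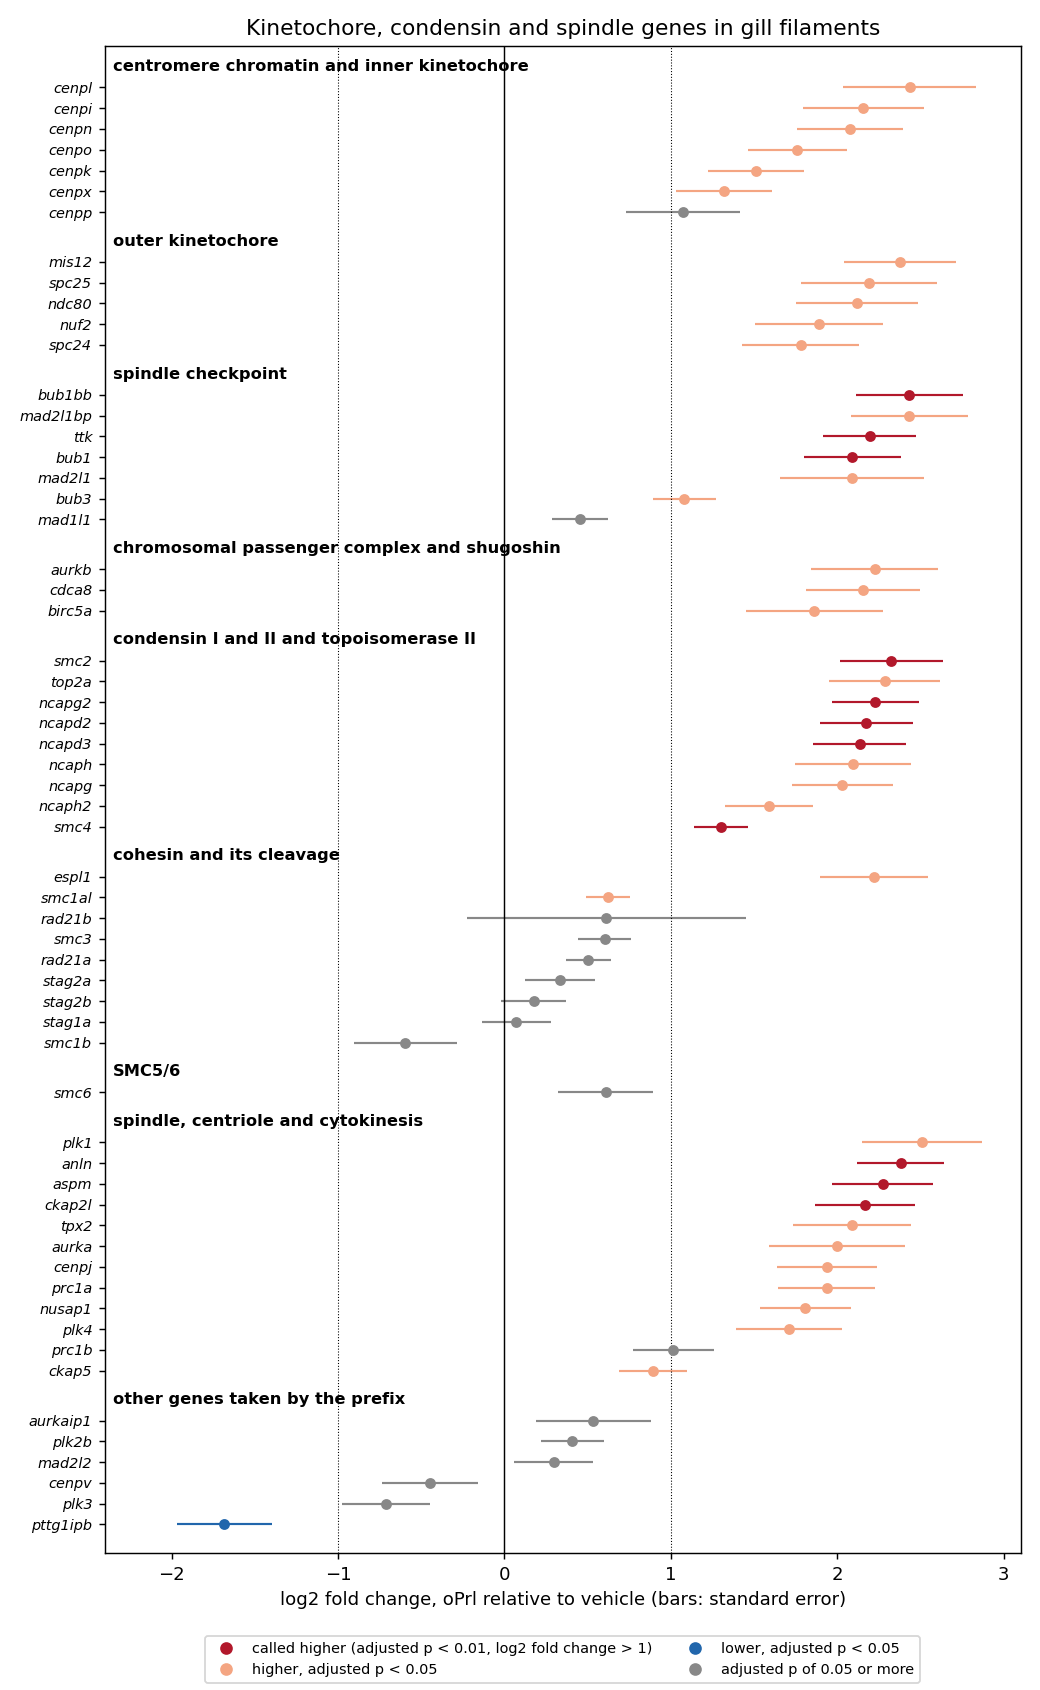
Log2 fold change (x axis, oPrl relative to vehicle) of each of the 59 members, grouped by role, with bars of 1 SE and dotted lines at a log2 fold change of 1 in either direction. Dark red marks the 11 genes called higher, light red those that passed 0.05 alone, blue the 1 lower gene and grey the 16 that did not pass, most of which belong to cohesin or were taken by the prefix.

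The number past a threshold depended on the libraries used. With oPrl replicate 1, 2 or 3 or vehicle replicate 1 or 2 left out, edgeR called 0 members, and without vehicle replicate 3 it called 5. Calls as higher also fell over all genes, from 0.715% to 0.0534%, 0.311% and 0.0164% without oPrl replicates 1, 2 and 3. Without vehicle replicates 1, 2 and 3 these shares were 0%, 0.0207% and 0.289%. At the looser threshold, 31, 35 and 17 members were higher without oPrl replicates 1, 2 and 3, and 7, 23 and 41 without vehicle replicates 1, 2 and 3. The shares of all genes that passed as higher in the same fits were 1.56%, 2.66% and 0.917%, and 0.712%, 1.21% and 3.15%. At an unadjusted p under 0.05, between 46 and 48 members were higher whichever library was left out, beside 8.55% to 12.4% of all genes. The median log2 fold change of the members then lay between 1.62 and 2.22. The 42 members higher at 0.05 had log2 fold changes of 0.57 to 2.86 over the alternatives. Since all 42 had groups that did not overlap, leaving out a library could not turn their sign. The shares of all genes given so far also stand beside the counts by role that follow.

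**Figure D2:**
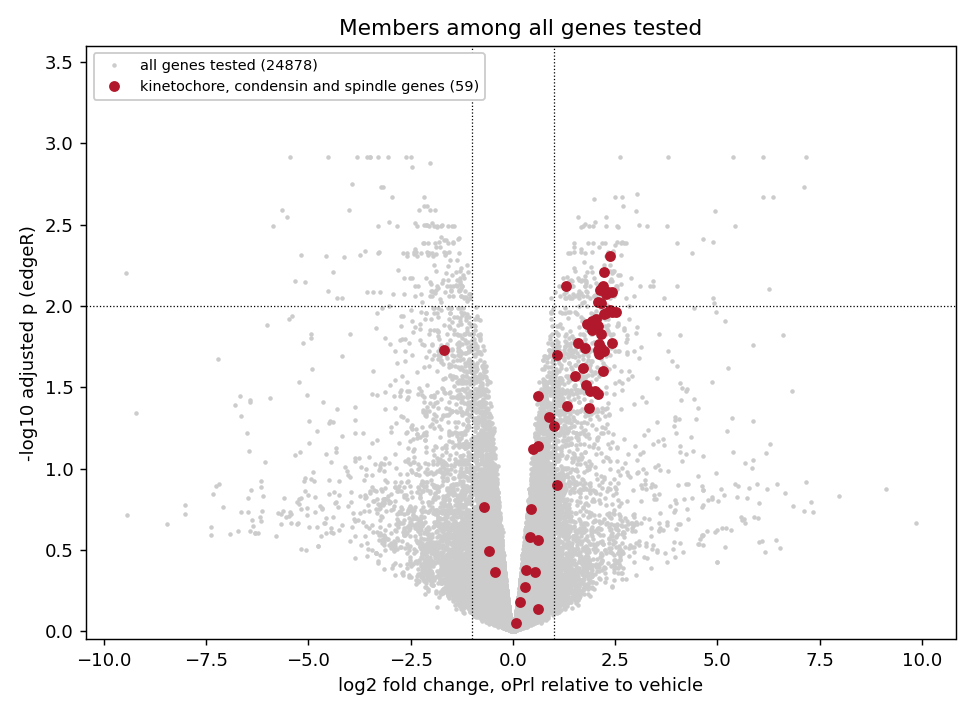
Log2 fold change (x axis) and −log10 of edgeR's adjusted p (y axis) of all 24878 genes tested in grey and of the 59 members in red, with dotted lines at the calling thresholds. Of the members, 55 lie at positive log2 fold changes and 4 at negative ones. Most lie between 1 and 2.51, and not among the genes with the most extreme fold changes. Most are close to the horizontal threshold, and the 16 that did not pass 0.05 lie further below it.

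At the centromere, 6 of the 7 inner kinetochore genes were higher at an adjusted p under 0.05 and 0 were called by edgeR, with all 7 at an unadjusted p under 0.05 and 6 called by DESeq2. These subunits form the network that stays on centromeric chromatin through the cell cycle and recruits the outer kinetochore. Their log2 fold changes ran from 1.07 to 2.43, with a median of 1.76, and in all 7 the groups were apart. The largest was that of *cenpl* (ENSONIG00000012114), whose partner *cenpn* reads the centromeric histone. *cenpl* stood at 8.93, 8.08 and 11 CPM in oPrl replicates 1, 2 and 3 and at 1.78, 0.909 and 2.54 CPM in vehicle replicates 1, 2 and 3. Its log2 fold change was 2.43 ± 0.40 (SE) with an adjusted p of 0.0168. *cenpn* (ENSONIG00000005603) had the smallest p of the 7, at 3.85, 5.01 and 5.18 CPM with oPrl and 1.13, 0.881 and 1.32 CPM with vehicle. The groups of both genes were apart. For *cenpn* the log2 fold change was 2.08 ± 0.32 and the adjusted p 0.0132. Of the rest, those that passed 0.05 were *cenpi* (2.16 ± 0.36), *cenpo* (1.76 ± 0.30), *cenpk* (1.51 ± 0.29) and *cenpx* (1.32 ± 0.29, adjusted p = 0.0412), of which *cenpx* also encodes a DNA repair partner. The smallest was *cenpp* (ENSONIG00000034839), with 8.11, 7.86 and 9.31 CPM against 3.81, 2.42 and 5.85 CPM, a log2 fold change of 1.07 ± 0.34 and an adjusted p of 0.125, which did not pass 0.05. Without oPrl replicate 3 or vehicle replicate 1, 0 of the 7 passed 0.05, beside 0.917% and 0.712% of all genes as higher.

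The outer kinetochore, which binds microtubules directly, was represented by the 4 subunits of the NDC80 complex and by *mis12*, the anchor between that complex and the centromere. All 5 were higher at an adjusted p under 0.05, 0 were called by edgeR, all 5 had an unadjusted p under 0.05 and DESeq2 called all 5. The 4 NDC80 subunits lay close together, at log2 fold changes of 1.78 ± 0.35 for *spc24*, 1.89 ± 0.38 for *nuf2*, 2.12 ± 0.37 for *ndc80* and 2.19 ± 0.41 for *spc25*. Summed over the 4, they held 81.8, 81.2 and 109.8 CPM in the oPrl libraries and 17.9, 14.5 and 36.5 CPM in the vehicle libraries. Vehicle replicate 3 was thus the highest of its group by a wide margin, yet remained below every oPrl library. *mis12* (ENSONIG00000040128) had both the smallest p and the largest change of the role. It stood at 6.18, 5.04 and 6.34 CPM with oPrl and at 1.34, 0.739 and 1.32 CPM with vehicle, a 5.19-fold difference (log2 fold change 2.38 ± 0.34, adjusted p = 0.0106). The least changed was *spc24* (ENSONIG00000008221), at 19.7, 18.5 and 29.7 CPM against 5.14, 4.66 and 10.1 CPM (adjusted p = 0.0306), and its groups did not overlap either. Without oPrl replicate 3, 0 of the 5 passed 0.05, and without vehicle replicate 1 only 1 of the 5 did. Of all genes, 0.917% and 0.712% passed as higher in these fits.

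Checkpoint genes included 3 of the 11 called members. Of the 7, 6 were higher at an adjusted p under 0.05, DESeq2 called 6, all 7 had groups that did not overlap, and the median log2 fold change was 2.09. The checkpoint senses kinetochores without microtubules and holds back anaphase, with Ttk and Bub1 as its kinases and BubR1 and Mad2 as parts of the inhibitor. *bub1bb*, which encodes BubR1 (ENSONIG00000012178), rose 5.4-fold, from 4.09, 3.15 and 6.46 CPM in the vehicle libraries to 21.8, 20.6 and 31.2 CPM in the oPrl libraries. Its log2 fold change was 2.43 ± 0.32 with an adjusted p of 0.00818. The kinase gene *ttk* (ENSONIG00000000059) had the smallest p of the role, with 27.4, 32 and 51.2 CPM with oPrl against 7.41, 7.19 and 9.62 CPM with vehicle. All oPrl libraries of *ttk* lay well above all vehicle libraries, with oPrl replicate 3 the highest of the 6. The log2 fold change of *ttk* was 2.19 ± 0.28 and its adjusted p 0.00753. *bub1*, a kinase that docks other checkpoint proteins, was called with 18.7, 21.8 and 34.8 CPM against 5.79, 4.86 and 7.07 CPM (log2 fold change 2.09 ± 0.29, adjusted p = 0.00943).

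The remaining checkpoint genes were spread more widely. *mad2l1*, which encodes Mad2 (ENSONIG00000005468), had 30, 30.2 and 41.5 CPM with oPrl and 5.18, 4.8 and 14.04 CPM with vehicle, and its adjusted p was 0.0348 at a log2 fold change of 2.09 ± 0.43. Vehicle replicate 3 held more *mad2l1* than the other two vehicle libraries together, and the SE was the widest of the role. *mad2l1bp*, whose product takes Mad2 off its targets and silences the checkpoint, was at 3.22, 3.78 and 4.19 CPM against 0.850, 0.511 and 0.712 CPM, a low gene with a log2 fold change of 2.43 ± 0.35 (adjusted p = 0.0108). *bub3*, whose product also serves outside mitosis, was higher by a smaller estimate, 1.08 ± 0.19 (adjusted p = 0.0201). *mad1l1*, the Mad2 anchor at nuclear pores and kinetochores (ENSONIG00000000162), had 20.5, 23.3 and 22.8 CPM with oPrl and 18.2, 16.2 and 14.1 CPM with vehicle. These groups did not overlap, but the difference of 0.45 ± 0.17 did not pass 0.05 after adjustment (adjusted p = 0.177). Without vehicle replicate 1, 2 of the 7 checkpoint genes passed 0.05, and without any other single library 3 to 6 did. The shares of all genes that passed as higher were 0.712%, and 0.917% to 3.15%.

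The chromosomal passenger complex corrects wrong attachments through Aurora B and later marks the cleavage plane. Its 3 members were all higher at an adjusted p under 0.05, 0 were called by edgeR, all 3 had an unadjusted p under 0.05 and DESeq2 called all 3. The kinase gene *aurkb* (ENSONIG00000041999) stood at 16.3, 17.2 and 24.2 CPM with oPrl and 2.87, 2.93 and 6.62 CPM with vehicle. *cdca8*, which encodes borealin (ENSONIG00000032157), stood at 15.4, 13.4 and 23.1 CPM and 3.56, 2.67 and 5.44 CPM. *birc5a*, which encodes survivin (ENSONIG00000019857), stood at 10.1, 8.88 and 17.3 CPM and 2.63, 2.27 and 5.14 CPM. In all 3 the groups were apart, oPrl replicate 3 was the highest oPrl library and vehicle replicate 3 the highest vehicle library. The log2 fold changes were 2.22 ± 0.38 for *aurkb* (adjusted p = 0.0189), 2.16 ± 0.34 for *cdca8* (adjusted p = 0.015) and 1.86 ± 0.41 for *birc5a* (adjusted p = 0.0425). Without oPrl replicate 3, vehicle replicate 1 or vehicle replicate 2, 0 of the 3 passed 0.05. Of all genes, 0.917%, 0.712% and 1.21% passed as higher in these fits.

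Condensin was the role in which most members were called. Vertebrates have condensin I, which reaches chromosomes once the nuclear envelope opens, and condensin II, which is nuclear throughout, and both are built on the same pair of ATPases, Smc2 and Smc4. All 8 condensin genes and *top2a* were higher at an adjusted p under 0.05, 5 of these 9 were called, all 9 had groups that did not overlap, and DESeq2 called all 9. The median log2 fold change was 2.13, with a range of 1.30 to 2.32.

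Of the shared pair, *smc2* (ENSONIG00000008811) stood at 57.8, 60.6 and 79.6 CPM with oPrl and 12.8, 8.33 and 18.5 CPM with vehicle. It rose 5.01-fold, with a log2 fold change of 2.32 ± 0.31 and an adjusted p of 0.00823. *smc4* (ENSONIG00000003617) stood at 101, 104 and 136 CPM with oPrl and 43.6, 45.7 and 49.2 CPM with vehicle. It rose 2.46-fold (log2 fold change 1.30 ± 0.16, adjusted p = 0.00753), and its 3 vehicle libraries were much closer to each other than those of *smc2*. The estimates of the 2 partners were unequal, a difference that was not tested, and *smc4* had both the smallest change and the smallest SE among the condensin genes.

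The subunits that belong to condensin I alone changed by similar amounts. *ncapd2*, a HEAT-repeat subunit (ENSONIG00000012903), stood at 77.03, 68.5 and 108 CPM with oPrl and 17.98, 13.5 and 24.8 CPM with vehicle and was called (2.17 ± 0.28, adjusted p = 0.00772). *ncapg*, the other HEAT-repeat subunit (ENSONIG00000009042), stood at 29.1, 33.9 and 47.5 CPM and 8.42, 6.36 and 12.4 CPM (2.03 ± 0.30, adjusted p = 0.012). *ncaph*, the kleisin that closes the ring (ENSONIG00000016003), stood at 19.3, 19.9 and 29.4 CPM and 4.98, 3.35 and 7.84 CPM (2.09 ± 0.35, adjusted p = 0.0172). In each, vehicle replicate 2 was the lowest library and oPrl replicate 3 the highest.

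In condensin II the HEAT-repeat genes were both called and the kleisin was not. *ncapd3* (ENSONIG00000009159) stood at 22.3, 21.1 and 30.9 CPM with oPrl and 6.76, 3.92 and 6.31 CPM with vehicle (2.13 ± 0.28, adjusted p = 0.00793). *ncapg2* (ENSONIG00000005990) stood at 21.6, 20.3 and 26.4 CPM and 4.45, 3.69 and 6.51 CPM (2.23 ± 0.26, adjusted p = 0.00619), the smallest p among the condensin genes. *ncaph2* (ENSONIG00000007505) stood at 21.4, 25.2 and 26.8 CPM and 7.45, 5.91 and 11.1 CPM (1.59 ± 0.26, adjusted p = 0.017). Summed over each complex's own 3 subunits, condensin I held 122.3 to 184.7 CPM with oPrl and 23.2 to 44.98 CPM with vehicle, and condensin II held 65.2 to 84.2 CPM and 13.5 to 23.9 CPM. The ranges of log2 fold change, 2.03 to 2.17 for condensin I and 1.59 to 2.23 for condensin II, overlapped. *top2a* (ENSONIG00000019923), which passes one DNA duplex through another to untangle sister chromatids, stood at 143, 136 and 230.5 CPM with oPrl and 31.6, 23.6 and 49.7 CPM with vehicle. It differed 4.87-fold (2.28 ± 0.33) and missed the call at an adjusted p of 0.0111. Without vehicle replicate 1, 3 of the 9 passed 0.05, and without any other single library 7 to 9 did. The shares of all genes that passed as higher were 0.712%, and 0.917% to 3.15%.

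**Figure D3:**
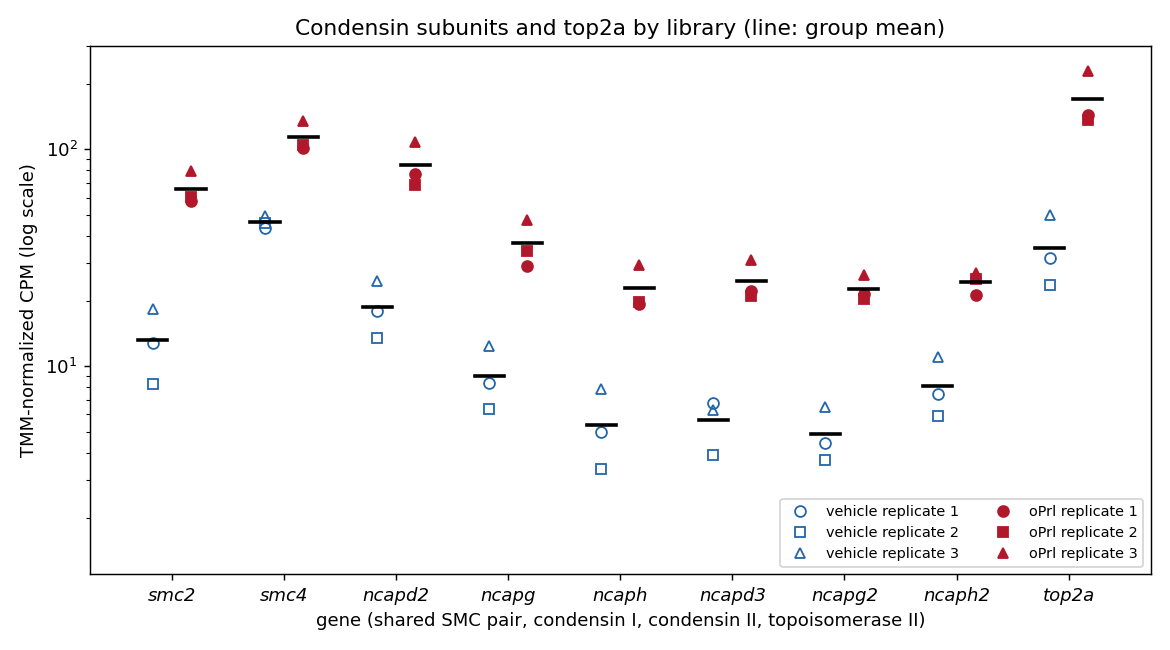
TMM-normalized CPM (y axis, log scale) of the 8 condensin genes and *top2a* in each of the 6 libraries, vehicle as open blue and oPrl as filled red symbols, 1 symbol shape for each replicate number and a black line for the group mean. In all 9 genes the red symbols lie above the blue ones, and *smc4* has the smallest ratio of group means.

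Cohesin genes had smaller log2 fold changes. The ring of Smc1, Smc3 and Rad21, with a Stag subunit, holds sister chromatids and also forms chromatin loops outside mitosis. Of the 9 genes of cohesin and its cleavage, 2 were higher at an adjusted p under 0.05, 0 were called by edgeR with 4 at an unadjusted p under 0.05, and DESeq2 called 1. Their median log2 fold change was 0.50. The 6 core genes (*smc1al*, *smc3*, *rad21a*, *stag1a*, *stag2a* and *stag2b*) lay between 0.07 and 0.62 and summed to 646.7 to 696.5 CPM with oPrl and 427.7 to 522.6 CPM with vehicle.

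Within the ring, *smc1al* (ENSONIG00000012052) had 193, 199 and 200.5 CPM with oPrl and 138, 129 and 118 CPM with vehicle. The groups were apart and narrow, the difference was 1.54-fold (0.62 ± 0.13), and the adjusted p was 0.0359. *smc3* (ENSONIG00000016298) had 133, 122 and 137 CPM and 93.9, 92.4 and 71.3 CPM, a difference of 0.60 ± 0.16 with an adjusted p of 0.0724. *rad21a*, the kleisin that separase cuts (ENSONIG00000007192), had 166, 177 and 198 CPM and 125, 127 and 129.8 CPM, a difference of 0.50 ± 0.13 with an adjusted p of 0.0756. In *smc3* and *rad21a* the groups did not overlap, and neither passed 0.05. The second Rad21 gene, *rad21b*, was near the limit of detection, with 25 counts over all 6 libraries and 0.0284 to 0.255 CPM, and no difference was detectable at this depth (adjusted p = 0.732).

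The Stag subunits overlapped between groups. *stag2b* had 100.5, 110.2 and 102 CPM with oPrl and 109, 99.3 and 68.6 CPM with vehicle (0.17 ± 0.19, adjusted p = 0.663). *stag2a* had 37.8, 52.7 and 41.7 CPM and 41.1, 36.6 and 27.4 CPM (0.33 ± 0.21, adjusted p = 0.422). *stag1a* had 16.9, 16.3 and 17.6 CPM and 16.4, 19.7 and 12.3 CPM (0.07 ± 0.21, adjusted p = 0.887), and its sign turned, to −0.084, without vehicle replicate 3. *smc1b*, known in mammals as the meiotic Smc1, was low, at 2.19, 1.75 and 1.81 CPM with oPrl and 3.32, 2.33 and 3.05 CPM with vehicle. It was 1 of the 2 members whose oPrl libraries all lay below the vehicle libraries, but its difference of −0.59 ± 0.31 passed no threshold (adjusted p = 0.32). *smc6*, of the separate SMC complex that acts in DNA repair, had 14.1, 11.8 and 12.5 CPM and 10.04, 9.92 and 5.14 CPM (0.61 ± 0.29, adjusted p = 0.274).

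Separase, the protease that cuts the ring, was higher at 0.05. *espl1* (ENSONIG00000019117) had 9.82, 10.4 and 18.2 CPM with oPrl and 2.59, 2.33 and 3.36 CPM with vehicle. The difference was 4.66-fold, with a log2 fold change of 2.22 ± 0.32 and an adjusted p of 0.0112, and DESeq2 called it. No overlap was seen between its groups. Without vehicle replicate 1, 0 of the 9 genes of cohesin and its cleavage passed 0.05, and without any other single library 1 or 2 did. The shares of all genes that passed as higher were 0.712%, and 0.917% to 3.15%.

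Among the 12 genes of the spindle, the centrioles and cytokinesis, 3 were called, 11 were higher at an adjusted p under 0.05, all 12 had groups that did not overlap, and DESeq2 called 10. The median log2 fold change was 1.97. *anln*, the anillin of the contractile ring (ENSONIG00000010375), had 41.6, 43.9 and 64.7 CPM with oPrl and 8.74, 7.81 and 12.4 CPM with vehicle. It rose 5.2-fold (log2 fold change 2.38 ± 0.26) and had the smallest adjusted p of all 59 members, 0.00492. *aspm*, which focuses spindle poles (ENSONIG00000003791), had 30.3, 31.8 and 59.5 CPM and 8.26, 7.3 and 9.67 CPM and was called (2.27 ± 0.30, adjusted p = 0.00844). *ckap2l*, a spindle microtubule protein, was called at 2.16 ± 0.30 (adjusted p = 0.00952).

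*plk1*, the polo kinase that drives entry into mitosis and centrosome maturation (ENSONIG00000000179), had the largest log2 fold change of the 59 members. It stood at 47.2, 46.7 and 87.7 CPM with oPrl and 8.83, 7.9 and 15.3 CPM with vehicle, a 5.69-fold difference (2.51 ± 0.36). oPrl replicate 3 held nearly as much *plk1* as the other two oPrl libraries together, and the adjusted p of 0.0108 missed the call. *tpx2*, which activates Aurora A on the spindle, changed by 2.09 ± 0.35, *aurka* itself by 2.0 ± 0.41 and *nusap1*, a microtubule bundler at chromosomes, by 1.81 ± 0.27. The centriole duplication genes *plk4* and *cenpj* changed by 1.71 ± 0.32 and 1.94 ± 0.30, and all of these passed 0.05. *cenpj* carries the centromere prefix but works at centrioles, and it stood at 7.37, 8.08 and 7.69 CPM with oPrl and 1.66, 2.76 and 1.58 CPM with vehicle. *ckap5*, a microtubule polymerase that also acts outside mitosis (ENSONIG00000012711), had 104, 111 and 136 CPM with oPrl and 68.6, 73.3 and 47.9 CPM with vehicle, the smallest change of the role (0.89 ± 0.20, adjusted p = 0.0479). Without vehicle replicate 1, 1 of the 12 genes passed 0.05, and without any other single library 6 to 10 did. The shares of all genes that passed as higher were 0.712%, and 0.917% to 3.15%.

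The copies of the midzone cross-linker Prc1 had unequal estimates, and the difference between them was not tested. *prc1a* (ENSONIG00000008303) had 47.2, 48.5 and 70.9 CPM with oPrl and 12.4, 10.9 and 20.3 CPM with vehicle (1.94 ± 0.29, adjusted p = 0.0124). *prc1b* (ENSONIG00000006966) had 18.04, 19.5 and 31.03 CPM and 10.5, 11.6 and 11.9 CPM (1.01 ± 0.24, adjusted p = 0.0544). Both had groups that did not overlap. Only reads that mapped uniquely were counted, so reads that copies of a gene have in common may be missing from either.

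The 6 genes set apart as taken by the prefix of their symbol had a median log2 fold change of −0.08 and a range of −1.68 to 0.53. They were set apart with earlier results of these data known, and some have reported links to mitosis. Of the 4 members with a negative log2 fold change, 3 were among these 6. None was called by edgeR in either direction, with 0 higher and 2 lower (*pttg1ipb* and *plk3*) at an unadjusted p under 0.05. The one that passed 0.05 was lower with oPrl. *pttg1ipb*, which encodes a membrane protein that binds securin (ENSONIG00000008999), had 4.88, 3.81 and 3.56 CPM with oPrl and 9.84, 11.96 and 17.6 CPM with vehicle. Every oPrl library lay below every vehicle library, at a log2 fold change of −1.68 ± 0.29 and an adjusted p of 0.0188, and DESeq2 called it lower. Without oPrl replicate 3 or vehicle replicate 2 it did not pass 0.05. The stress-responsive polo kinases did not pass 0.05 after adjustment, and their difference from *plk1* and *plk4* was not tested. *plk2b* had 190.0, 228 and 198 CPM and 166, 179 and 119 CPM (0.41 ± 0.19, adjusted p = 0.262), and *plk3* had 61.02, 59.1 and 57.3 CPM and 127, 104 and 59.8 CPM (−0.71 ± 0.26, adjusted p = 0.172). Without vehicle replicate 3, *plk3* was lower at −0.96 with an adjusted p of 0.0224. *mad2l2*, a DNA repair protein, was at 0.30 ± 0.24, *cenpv* at −0.45 ± 0.29 and *aurkaip1*, of the mitochondrial ribosome, at 0.53 ± 0.35, with adjusted p between 0.433 and 0.532. Without these 6 genes the median of the remaining 53 members was 2.0.

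Ratios of raw counts within a library, in which scaling between libraries cancels, show the unequal change of relatives fish by fish. They restate the fold changes above and add no separate support. The pairs were chosen after their values had been seen and are given as a description, and since gene length was not used, a ratio says nothing of which gene is more abundant. The ratio of condensin *smc2* to cohesin *smc3* was 0.436, 0.497 and 0.582 in the oPrl libraries and 0.137, 0.0901 and 0.259 in the vehicle libraries. For *smc4* to *smc1al* it was 0.525, 0.526 and 0.676 against 0.317, 0.355 and 0.415. Neither ratio overlapped between groups, and their mean log2 values differed by 1.77 and 0.66. The ratio of *plk1* to *plk2b* was 0.249, 0.205 and 0.444 against 0.0532, 0.0441 and 0.129. The ratio of *bub1bb* to *mad1l1* was 1.07, 0.884 and 1.37 against 0.225, 0.194 and 0.457. Within condensin, *smc2* to *smc4* was 0.570 to 0.587 in all oPrl libraries and 0.182 to 0.376 in the vehicle libraries. The oPrl values of this pair lay closer together than the vehicle values, a difference in spread that was not tested. The oPrl values of *plk1* to *plk2b* were wider apart, at 0.205 to 0.444. For *prc1a* to *prc1b* the ratio was 2.29 to 2.61 with oPrl and 0.944 to 1.71 with vehicle.

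**Figure D4:**
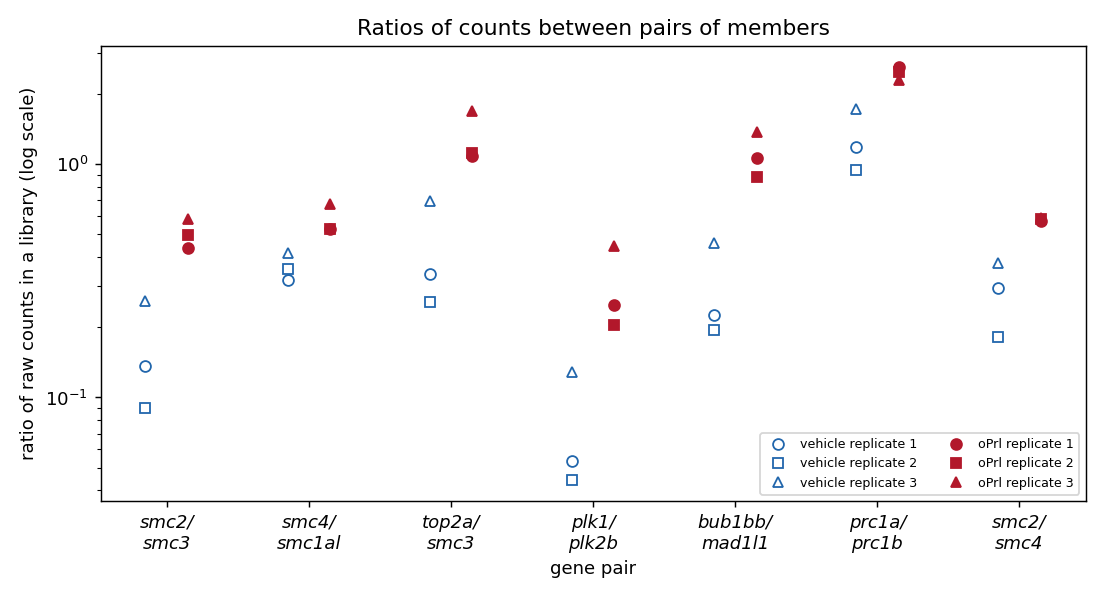
Ratio of the raw counts of 2 genes in the same library (y axis, log scale) for 7 pairs of members, vehicle as open blue and oPrl as filled red symbols, 1 symbol shape for each replicate number. In every pair the 3 oPrl libraries lie above the 3 vehicle libraries, and the oPrl values of *smc2* to *smc4* nearly coincide at 0.570 to 0.587.

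Most of the raised members shared an order of fish within each group. Of the 42 members higher at 0.05, 39 (92.9%) were highest in oPrl replicate 3 among the oPrl libraries, beside 28.6% of all genes tested and 40.5% of all 815 genes higher at that threshold. Vehicle replicate 3 was the highest vehicle library in 35 of the 42 (83.3%), beside 39.0% and 59.8%, and vehicle replicate 2 the lowest in 37 (88.1%), beside 31.6% and 54.5%. In the median member, oPrl replicate 3 held 1.43 times the mean of the other two oPrl libraries (range 0.873 to 1.92), and vehicle replicate 3 held 1.67 times the mean of the other two vehicle libraries (range 0.675 to 2.81). Among the 16 members that did not pass 0.05 in either direction, oPrl replicate 3 was the highest oPrl library in 6 (37.5%), vehicle replicate 3 the highest vehicle library in 6 (37.5%) and vehicle replicate 2 the lowest in 4 (25.0%), while vehicle replicate 1 was the highest in 8 and vehicle replicate 3 the lowest in 8. The difference between the 42 and the 16 was not tested. Genes that vary together from fish to fish are not independent replicates.

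Vehicle replicate 3 was the shallowest library and vehicle replicate 2 the deepest, at 21643589 and 35976655 counts. Skeletal muscle markers (4 of 6 listed had a tested gene) were likewise highest in vehicle replicate 3 and lowest in vehicle replicate 2. Their summed levels were 86.6, 1.42 and 174.9 CPM in vehicle replicates 1, 2 and 3 and 33.2, 29.4 and 59.4 CPM in oPrl replicates 1, 2 and 3. The erythrocyte, leukocyte and proliferation lists described below had the same highest and lowest vehicle library. For the erythrocyte list, vehicle replicates 1 and 3 were nearly equal, at 386.3 and 386.8 CPM. The ionocyte, epithelial, endothelial, cartilage and B and T cell lists did not. The part of depth and of muscle tissue in the spread within groups was not tested. Without vehicle replicate 3 the median log2 fold change of the members was 2.22, and without vehicle replicate 2 it was 1.62.

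**Figure D5:**
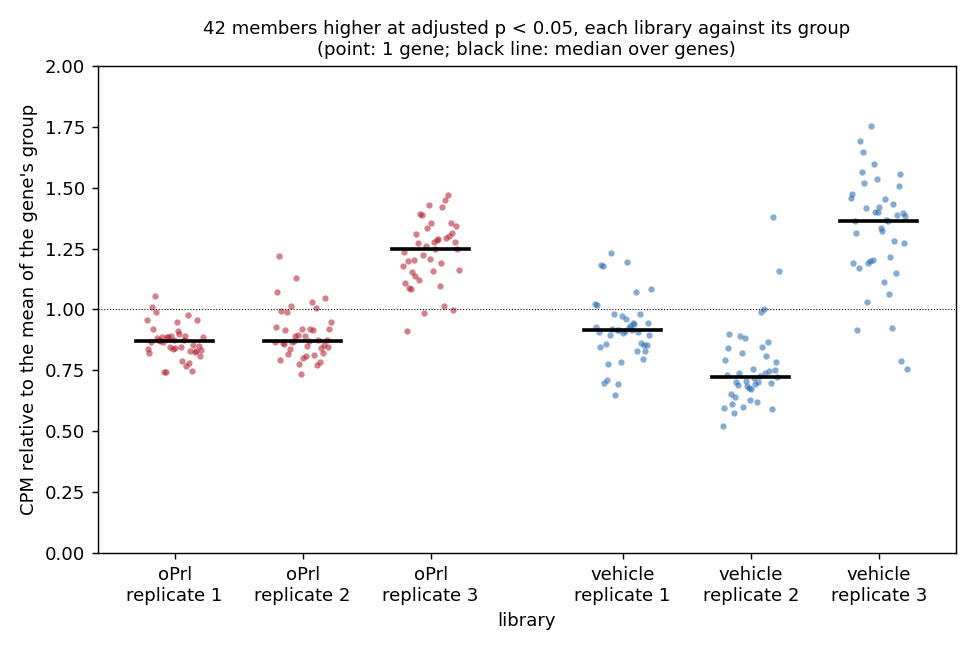
CPM of each of the 42 members higher at 0.05, divided by the mean of its own group (y axis), in the 6 libraries (x axis), with 1 point for each gene and a black line at the median over genes. oPrl replicate 3 and vehicle replicate 3 lie above 1 for most genes, and vehicle replicate 2 lies lowest.

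Partners of these complexes outside the 59 genes were read from lists written by function, with 81 genes tested in all. Of these 10 were called higher and 0 lower, beside 0.715% and 0.687% of all genes. At 0.05, 43 were higher and 0 lower, beside 3.28% and 2.83%. At an unadjusted p under 0.05, 57 were higher and 1 (*anapc16*) lower, beside 11.6% and 10.1%. The median log2 fold change was 1.0. With 1 library left out, 0 to 3 were called and 6 to 44 were higher at 0.05, the latter beside 0.712% to 3.15% of all genes. The 6 were without vehicle replicate 1, and 11 were higher without oPrl replicate 3. In these fits 0% to 0.311% of all genes were called higher. Without vehicle replicate 1 no gene of the table was called. The 10 calls were lost there with all others, as the smallest adjusted p over all genes was 0.0123. Other kinetochore genes (11 tested) had 2 called, 9 higher at 0.05 and a median of 2.0. The called ones were *spdl1*, which recruits dynein to kinetochores (2.29 ± 0.25, adjusted p = 0.00484), and *mis18a*, which licenses new centromeric histone (2.75 ± 0.38, adjusted p = 0.00889). Spindle-associated genes (22 tested) had 5 called, 17 higher at 0.05 and a median of 2.0, and the called ones were the kinesins *kif14*, *kif15*, *kif4* and *KIF23* and the spindle protein gene *fam83d*. The smallest adjusted p of that list was that of *kif15* (2.44 ± 0.26, adjusted p = 0.00458). The called *KIF23* was ENSONIG00000013226. Another gene of that symbol (ENSONIG00000015489) was higher at 0.05 (2.07 ± 0.38, adjusted p = 0.0237). A further one (ENSONIG00000040865), with group means of 0.479 CPM with oPrl and 0.877 CPM with vehicle, did not pass (−0.86 ± 1.09, adjusted p = 0.708).

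The γ-tubulin and augmin genes (14 tested), which seed spindle microtubules, had 2 called, *tubg1* (1.32 ± 0.16, adjusted p = 0.00665) and *haus3* (1.78 ± 0.23, adjusted p = 0.00806), 8 higher at 0.05 and a median of 1.24. The anaphase-promoting complex with its activators and inhibitor (21 tested) had 0 called by edgeR, 11 higher and 1 lower at an unadjusted p under 0.05, 4 called higher by DESeq2, 6 higher at 0.05 and a median of 0.51. Of those 6, the activator *cdc20* (1.68 ± 0.33) and the inhibitor *fbxo5* (2.31 ± 0.40) had larger estimates than the subunits *anapc1* (1.03 ± 0.21), *anapc4* (1.0 ± 0.20) and *anapc5* (1.08 ± 0.19), the last with the smallest adjusted p of the list (0.0195). The sixth was 1 of the 2 genes with the symbol *ube2c*, the ubiquitin-conjugating enzyme of the complex (ENSONIG00000028821, 2.11 ± 0.43, adjusted p = 0.033). The other *ube2c* gene (ENSONIG00000028562) had group means of 123 CPM with oPrl and 105 CPM with vehicle and did not pass (0.24 ± 0.19, adjusted p = 0.53). The differences between these genes were not tested. Cohesin regulators (13 tested) had a median of 0.24. Of the 3 that were higher at 0.05, *esco2*, the acetyltransferase that locks cohesin during replication, was called, at 19.1, 19.3 and 21.3 CPM with oPrl against 3.48, 2.5 and 5.09 CPM with vehicle (2.44 ± 0.29, adjusted p = 0.00619). *cdca5*, which encodes sororin, the protector of cohesin in dividing cells, was at 2.15 ± 0.38 (adjusted p = 0.0213), and *mau2* (ENSONIG00000010160), a partner of the cohesin loader, at 0.69 ± 0.16 (adjusted p = 0.0485). Another gene of that symbol, *MAU2* (ENSONIG00000002458), had group means of 54.8 CPM with oPrl and 55.4 CPM with vehicle. It did not pass (−0.015 ± 0.17, adjusted p = 0.972). The loaders *nipbla* (−0.05 ± 0.16) and *nipblb* (0.24 ± 0.13) did not pass.

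Other markers of division moved with these genes. The 7 proliferation markers outside the set (*mki67*, *pcna*, *mcm2*, *mcm5*, *RRM2*, *ccnb1* and *cdk1*, of which *ccnb1* and *cdk1* are also among the spindle-associated genes) were all higher at 0.05, 4 of them called, with a median log2 fold change of 2.08 and summed levels of 552.3 to 694.1 CPM with oPrl against 114.9 to 206.2 CPM with vehicle. With 1 library left out, 0 to 3 of the 7 were called, beside 0% to 0.311% of all genes called higher. In the same fits 4 to 7 were higher at 0.05, beside 0.712% to 3.15% of all genes. Without vehicle replicate 1 no gene of the table was called, so the 4 calls were lost there with all others. No tested marker of the cell types of the filament passed 0.05 by edgeR. At the stricter calling thresholds, DESeq2 called the ionocyte marker *ca2* lower and the cartilage marker *sox9a* higher. At a DESeq2 adjusted p under 0.05, *krt5*, *krt8* and *csf1ra* were also lower and *lck*, *tp63* and *cdh5* also higher. Of all genes tested, 1654 were higher and 1661 lower at that DESeq2 threshold. The summed levels of the ionocyte list (4 of 7 listed tested, 217.4 to 742.4 CPM with oPrl and 866.0 to 1309 CPM with vehicle) and of the epithelial list (4 of 8, 6240 to 9473 and 11213 to 12201 CPM) were lower with oPrl in every library, led by *ca2* and *krt5*. The other ionocyte markers, *slc12a2*, *cftr* and *foxi1*, overlapped between groups (adjusted p 0.496 to 0.850). Within the epithelial list, *epcam*, *krt5* and *krt8* had negative estimates and the basal cell marker *tp63* a positive one. *krt8* had 1512 to 2325 CPM with oPrl and 2638 to 2785 CPM with vehicle (adjusted p = 0.12). *tp63* had 244 to 366 CPM with oPrl and 173 to 215 CPM with vehicle (adjusted p = 0.0966). The cartilage list (3 of 5) was higher, at 12.1 to 19.4 CPM against 6.31 to 6.96 CPM, mostly through *sox9a*. The summed levels of the erythrocyte (5 of 7), leukocyte (5 of 9), B and T cell (3 of 6) and endothelial (5 of 5) lists overlapped between groups. Single markers in these lists had groups apart, with *lck*, *cdh5* and *kdrl* higher and *csf1ra* and *pecam1* lower with oPrl (adjusted p 0.0722 to 0.353). Of all genes, 16.3% had groups apart as higher and 12.7% as lower. No tested marker was at 0 in either group. The part of the mix of cell types in the results was not tested.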

How the data were processed

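Total RNA from gill filaments of 6 fish, 3 in each group, was sequenced as 1 library a fish. The authors demultiplexed reads with bcl2fastq 2.20, trimmed them with Trimmomatic 0.36, mapped them with STAR 2.5.2b to the Nile tilapia (*Oreochromis niloticus*) genome, a relative of the species sampled, and deposited unnormalized featureCounts counts of uniquely mapped reads on each gene. Build, annotation and strand setting were not given in the sources used here, so antisense and overlapping genes cannot be separated, and no gene sequence or coordinate was used here. Of 32591 genes, 17210 had a symbol. One row without an ID (0.0901% to 0.135% of counts) was left out.

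Genes with at least 10 counts in all were tested with edgeR 4.0.16 (R 4.3.3, TMM, quasi-likelihood, Benjamini-Hochberg), by group alone, and called at an adjusted p under 0.01 with an absolute log2 fold change over 1, the thresholds of the study's methods. DESeq2 1.42.0, the study's tool, was an alternative and gave no adjusted p for 3981 genes, which were not counted as lost. Other alternatives were RLE size factors, library totals alone, no count minimum, filterByExpr, a robust fit, a replicate block, the 0.05 threshold and each library left out. The 0.05 threshold under each setting, the count ratios and the counts of partner and marker genes with a library left out were added after seeing the data.

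The members, their roles and the partner and marker lists were chosen with earlier results of these data known. Every member was counted in its role. Values per library were given for the member of each role with the smallest p, the largest absolute and the lowest log2 fold change, for all condensin genes, gene copies and genes called lower, and for genes needed beside these, which were added after their values were seen. No library repeated another of its group, since chi-square values per degree of freedom between libraries of a group were 26.3 to 98.6. Libraries of different groups were not compared in this way.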

Additional observations from a re-analysis of the deposited data

How the results depend on the processing

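Over all genes, 349 were called (178 higher and 171 lower), against 1496 with DESeq2, 1520 at an adjusted p under 0.05 with no minimum fold, 30 with the replicate block and 0 to 215 with 1 library left out (0 without vehicle replicate 1, where the smallest adjusted p was 0.0123 and 4154 genes had an unadjusted p under 0.05). Of the members, 11 were called higher, against 40 with DESeq2, 23 with library totals alone and 20 with no count minimum. There were 42 at 0.05 with no minimum fold, 1 with the replicate block and 0 to 5 with 1 library left out. Of all genes tested, 0.715% were called higher, against 3.08% with DESeq2, 1.44% with library totals alone and 0.831% with no count minimum. This share was 3.28% at 0.05 with no minimum fold, 0.0523% with the replicate block and 0% to 0.311% with 1 library left out. Called lower were 0, against 1 with DESeq2 and 1 at 0.05, the same gene (*pttg1ipb*). Higher at 0.05 were 42 members, against 7 to 41 with 1 library left out (7 without vehicle replicate 1). There were 35 with the replicate block and 41 to 46 under the other settings. Of all genes tested, 3.28% were higher at 0.05, against 0.712% to 3.15% with 1 library left out. This share was 1.48% with the replicate block and 2.8% to 6.65% under the other settings. The median log2 fold change of the members, 1.89, was 1.62 to 2.22 with 1 library left out and 2.08 with library totals alone, where the median of all genes moved from 0.02 to 0.19 and the calls split 358 higher to 147 lower (70.9% higher, beside 51.0%). Members with groups that did not overlap, 49 with oPrl higher, numbered 49 to 52 under the alternatives run. Leaving out a library could only keep or raise this number, since the CPM were not rescaled, so those fits say nothing of its stability. The share of all genes under these alternatives is not given here. *stag1a* ranged from −0.084 to 0.21 with 1 library left out, turning negative without vehicle replicate 3. The cause of these differences was not tested.

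Over all genes, deviations of same-numbered libraries from their group means correlated at −0.118, −0.0223 and 0.011. In most of the 42 members higher at 0.05, replicate 3 was the highest library of its group, with oPrl (39) and with vehicle (35). Whether same-numbered libraries shared a processing step was not tested, and the block result is given as a change of model. With 3 fish in each group, calls rest on few libraries. The wide range of counts past a threshold stands beside a median log2 fold change of the members of 1.62 to 2.22 with 1 library left out. Single members ranged more widely, as *mad2l1* from 1.78 to 2.77. Counts were low for *rad21b* (25 in all) and under the minimum for *birc5b*, *rad21l1* and *stag3*, where low expression and limited depth cannot be told apart. No motif search was run, since no promoter sequences were used here.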
